A study of Mus musculus with 4 samples.

Results

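Semaphorins, plexins and neuropilins were examined in single cells from the leg muscles of E18.5 mouse fetuses. The genes were taken from the feature table by symbol (Sema with a class number and a letter, Plxn with a letter and an optional number, Nrp1 and Nrp2), which gave 31 of 32285 genes. They comprised 20 semaphorins, 9 plexins and 2 neuropilins. Fetuses were wild-type (WT) or lacked the long non-coding RNA *SYISL* (knockout, KO), and were littermates from heterozygous matings. Each genotype had 2 libraries, made with a droplet method that counts unique molecular identifiers (UMIs) at the 3′ end of transcripts. Leg muscles were taken from each fetus separately, but whether a library came from 1 fetus was not given, so p-values measure the spread between libraries. Muscles were dissociated with trypsin, and mature muscle fibers are too big for this method.

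Semaphorins are ligands that guide axons, vessels and migrating cells. Class 3 semaphorins are secreted and most of them bind a neuropilin, which has no signalling domain of its own and pairs with an A-type plexin or with plexin D1. Semaphorins of classes 4 to 6 span the membrane and semaphorin 7A is anchored to it by a lipid, and these mostly bind plexins directly. In embryos, *Sema3a* is known for steering motor axons into the limb and *Sema3e* with *Plxnd1* for patterning vessels. Neuropilins also bind vascular endothelial growth factors.

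Of 41741 deposited cells, 36969 were kept, from 8177 to 10461 per library. The kept cells held 93728519 to 108962643 UMIs per library. Median UMIs per cell were 9118 to 11427. No feature was named for *SYISL*, which leaves the knockout unchecked at its target. The host gene *Synpo2* was at 9.03 to 10.9 CPM (UMIs of a gene scaled to a total of 1000000 UMIs) in the 4 libraries. KO replicate 2 stood apart from the rest by sex-linked transcripts, with *Xist* at 1203 CPM against 0 to 0.0533 in the other 3 libraries and *Ddx3y* at 0.927 against 99.5 to 108. Beside KO replicate 1, no other KO library shared the sex-linked pattern of the WT libraries. The KO against WT fits below did not account for this difference, and its part in them was not tested. *Plxna3* and *Plxnb3* lie on the X chromosome. Of the kept barcodes, 124 occurred in more than 1 library.

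Below, CPM refers to the summed UMIs of one class in one library, and 4 values in a row stand in the order WT replicates 1 and 2, then KO replicates 1 and 2. Cells were clustered without the 31 genes and named from markers. The 10 named classes were fibro-adipogenic progenitor (FAP)-like, myogenic-like, glial-like, smooth muscle or pericyte-like, endothelial-like, tenocyte-like, chondrocyte-like, macrophage-like, mast-like and neutrophil-like cells. A cluster led by *Kera*, with 6 of 7 tenocyte and 6 FAP markers, and a cluster led by *Ccl11*, with 3 of 6 perineurial and 7 FAP markers, stayed unnamed. Another unnamed cluster, of 471 cells (54, 40, 125 and 252 per library) and led by *Hmcn2*, carried 7 of 8 myogenic and 6 FAP markers, and was left out of the levels by a choice made with the data in view. None of the 31 genes had its highest mean there, and 1 (*Plxna3*) would have it as the next class. The 31 genes gave 466936 UMIs, or 0.117% of all kept UMIs, and each had at least 20. Because classes are clusters of the same cells, levels between classes are described and not tested.

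For 22 of the 31 genes the same class was highest in all 4 libraries. For 19 the lowest library of the highest class lay above the highest library of the next class. How many of all genes do the same is not given here, so these counts do not set the family apart. Endothelial-like cells were highest for 6 genes, glial-like cells for 6, smooth muscle or pericyte-like cells for 4, the *Kera*-led cluster for 4 and neutrophil-like cells for 3. Myogenic-like cells, the class that forms muscle, were highest for 1 gene, *Plxna2*. Droplets also hold free RNA, so low levels in small classes need not be made by those cells. Its part in these levels was not tested.

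**Figure D1:**
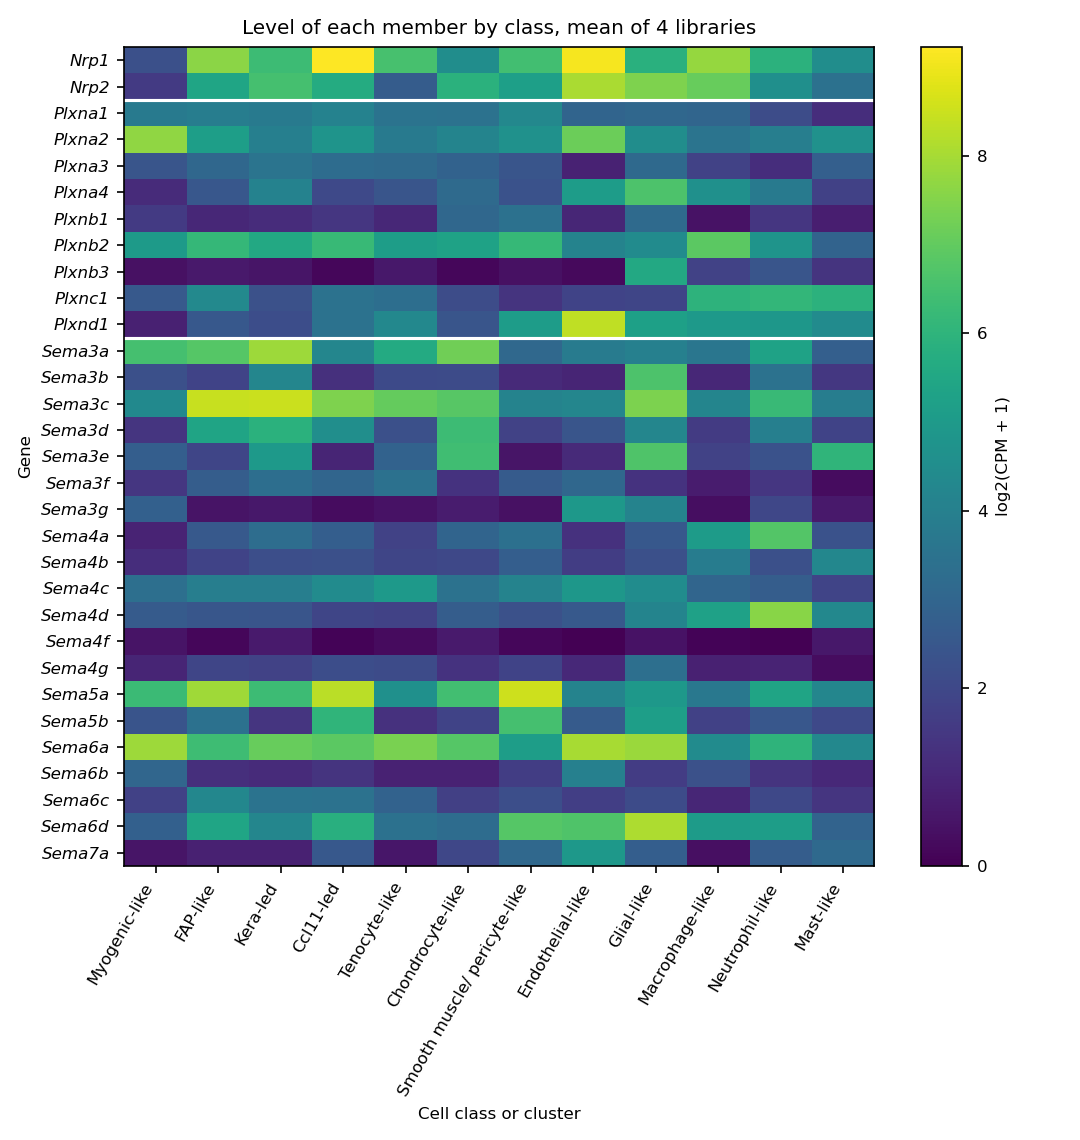
Heat map of the 31 genes (rows; neuropilins, plexins and semaphorins from top to bottom, divided by white lines) against 12 cell classes or clusters (columns), coloured by log2(CPM + 1) of the mean of 4 libraries. *Plxnd1* stands out in endothelial-like cells and *Plxnb3* in glial-like cells. *Plxna2* is highest in myogenic-like cells, but only 1.47 times the next class, endothelial-like cells. Both neuropilins are near the bottom of the scale in myogenic-like cells.

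The 2 genes whose highest class stood furthest above the next class were *Plxnb3* (46.8 CPM in glial-like cells, 10.8 times the next class, neutrophil-like cells) and *Plxnd1* (321 CPM in endothelial-like cells, 8.78 times the next class). The first ratio rests on 4 UMIs of *Plxnb3* in neutrophil-like cells, and without KO replicate 1 the next class was macrophage-like cells and the ratio 20.9. Their promoters are shown because these 2 genes mark one class each. The sequences are the 250 bases before the gene start from RefSeq (GRCm38), 5′ to 3′ on the strand of the gene, chrX:73756853-73757102 (plus strand) for *Plxnb3* and chr6:115995006-115995255 (minus strand) for *Plxnd1*. Capitals mark ACAAAG (a SOX-type motif), CAGCTG (an E-box) or CCGGAA (an ETS-type motif) on either strand.
Plxnb3: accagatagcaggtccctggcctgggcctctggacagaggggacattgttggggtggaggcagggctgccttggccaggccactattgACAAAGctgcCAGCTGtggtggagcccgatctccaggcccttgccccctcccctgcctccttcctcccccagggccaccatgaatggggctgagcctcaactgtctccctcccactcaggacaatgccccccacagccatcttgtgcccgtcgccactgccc
Plxnd1: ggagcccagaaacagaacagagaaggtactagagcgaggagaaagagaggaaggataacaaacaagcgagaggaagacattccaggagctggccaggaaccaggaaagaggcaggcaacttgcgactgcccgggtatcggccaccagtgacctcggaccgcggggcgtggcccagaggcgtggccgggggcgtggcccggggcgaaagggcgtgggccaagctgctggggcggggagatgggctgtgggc
The *Plxnb3* window held 1 SOX-type motif and 1 E-box, and the *Plxnd1* window held none of the 3 motifs. Among 32851 such windows of the genome, 16.5% held ACAAAG, 13.0% CAGCTG and 12% CCGGAA. Among the 37 windows of 26 of the 31 genes, 5, 6 and 4 held them. A match is a run of letters and not a binding site.

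Both neuropilins were highest in cells of the vessel lining or in the *Ccl11*-led cluster and lowest in myogenic-like cells. *Nrp1*, the co-receptor for *Sema3a*, was at 598, 649, 589 and 555 CPM in the *Ccl11*-led cluster and at 533, 561, 577 and 524 CPM in endothelial-like cells, and these ranges overlapped. Macrophage-like cells had 259, 215, 206 and 183 CPM of *Nrp1* and FAP-like cells 217, 194, 198 and 184 CPM. Myogenic-like cells had 2.91 to 4.4 CPM. *Nrp2*, a co-receptor of several class 3 semaphorins, was at 229, 280, 274 and 267 CPM in endothelial-like cells, above glial-like cells at 179, 189, 164 and 161 CPM in every library. Macrophage-like cells came next with 133, 123, 133 and 150 CPM of *Nrp2*, below each glial-like value, and myogenic-like cells had 1.90 to 2.09 CPM. Within endothelial-like cells the neuropilins differed by sub-cluster. Sub-clusters of 146, 109 and 21 cells carried 7 or 8 markers of another class. Without them, *Nrp1* in endothelial-like cells was at 575, 600, 629 and 587 CPM, within the range of the *Ccl11*-led cluster. *Nrp2* was at 66.1, 76.1, 131 and 61.7 CPM in the arterial-like sub-cluster and at 327, 357, 318 and 344 CPM in the *Pgm5*-led sub-cluster, so the ranges did not overlap. *Nrp1* was at 690, 688, 760 and 639 CPM in arterial-like cells against 553, 564, 555 and 536 CPM in the *Pgm5*-led cells, again without overlap.

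Among the A-type plexins, which signal for neuropilin-bound ligands and for class 6 semaphorins, *Plxna2* (ENSMUSG00000026640, mm10, chr1:194618218-194816869, plus strand) was the one highest in myogenic-like cells. It was at 220, 224, 199 and 188 CPM there and at 143, 138, 147 and 137 CPM in endothelial-like cells, with no overlap. FAP-like cells had 32.5 to 38.6 CPM of *Plxna2*. *Plxna4*, known from axon guidance, was at 96.9, 95.6, 94.8 and 105 CPM in glial-like cells and at 28.3 to 42.4 CPM in endothelial-like cells. *Plxna1* and *Plxna3* were low when whole classes were summed. *Plxna1* reached 14.8 to 21.2 CPM in smooth muscle or pericyte-like cells, overlapping the *Ccl11*-led cluster at 13.5 to 19.3 CPM. *Plxna3* reached 8.91 to 11.9 CPM in the *Kera*-led cluster, overlapping 7.01 to 10.5 CPM in the *Ccl11*-led cluster. Within myogenic-like cells, a myoblast-like sub-cluster had 39.9 to 62.2 CPM of *Plxna1*.

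The B-type plexins, mostly receptors for class 4 semaphorins, lay in different classes. *Plxnb2* was at 122, 123, 123 and 106 CPM in macrophage-like cells, above the 71.1 to 80.8 CPM of the *Ccl11*-led cluster. *Plxnb3* was at 50.6, 48.9, 41.8 and 45.9 CPM in glial-like cells. The next class was neutrophil-like cells, with 3.47, 0, 13.9 and 0 CPM, and they numbered 104, 60, 25 and 25 cells. *Plxnb1*, the receptor for *Sema4d*, was low throughout and reached 6.94 to 11.4 CPM in smooth muscle or pericyte-like cells, overlapping glial-like cells at 6.34 to 10.0 CPM. *Plxnc1*, the receptor for *Sema7a*, was high in blood cell classes. It was at 57.3, 93.0, 76.5 and 46.1 CPM in neutrophil-like cells, 59.8, 62.6, 61.4 and 61.1 CPM in macrophage-like cells and 35.9, 65.1, 63.7 and 72 CPM in mast-like cells, ranges that overlapped. *Plxnd1*, the receptor for *Sema3e*, was at 307, 356, 307 and 316 CPM in endothelial-like cells and at 30.8 to 41.2 CPM in glial-like cells, the next class. Myogenic-like cells had 0.573 to 1.02 CPM of *Plxnd1*.

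**Figure D2:**
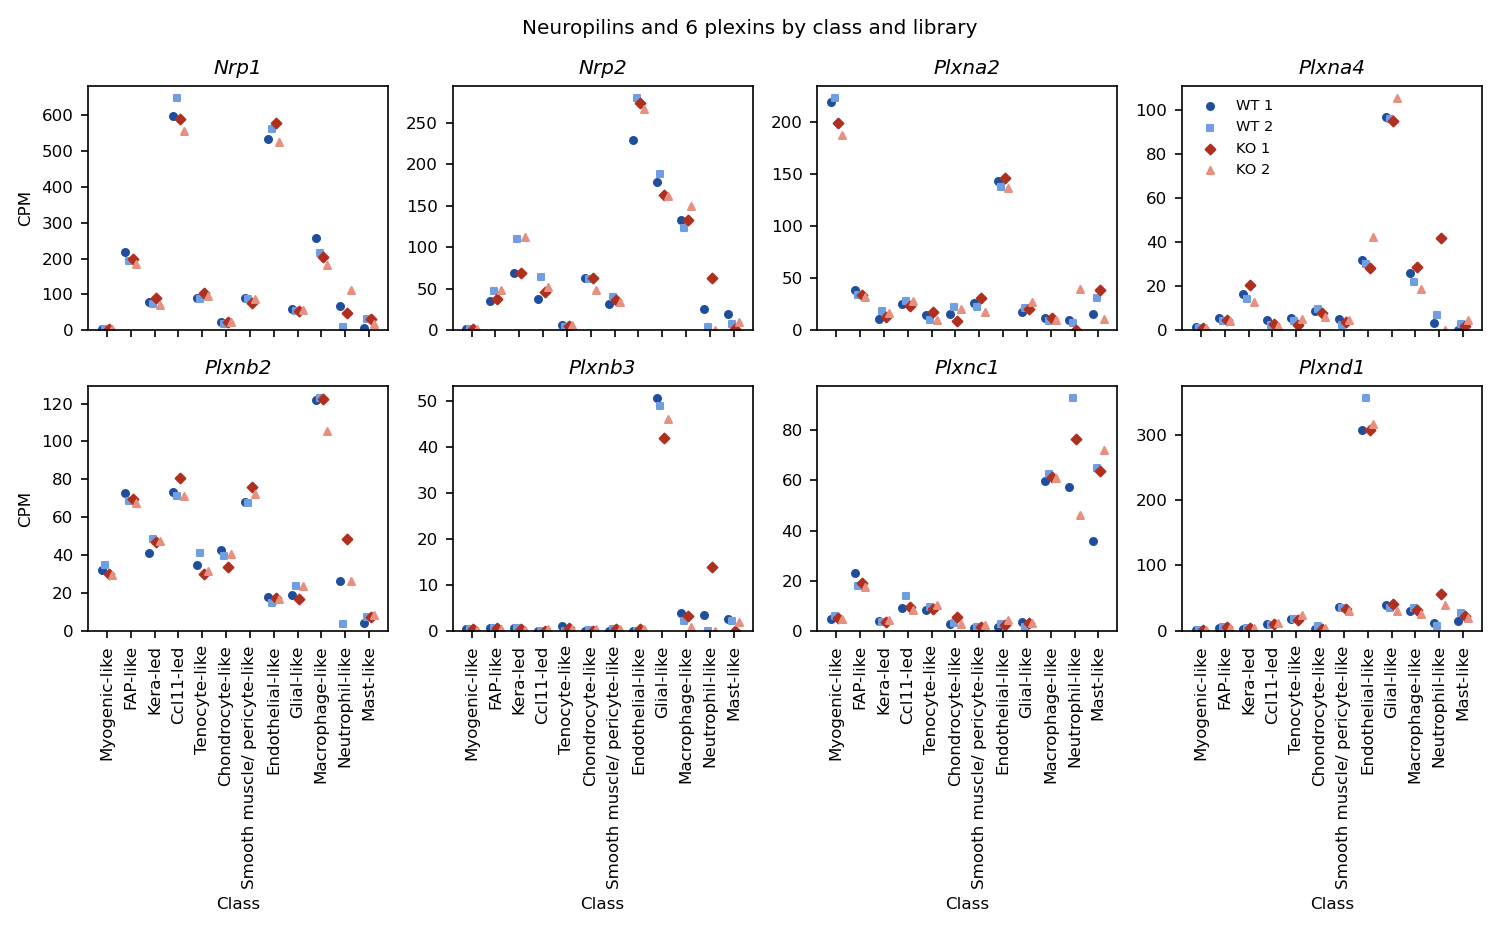
CPM (linear vertical axis from 0) of *Nrp1*, *Nrp2* and 6 plexins in 12 classes (horizontal axis), with 1 symbol for each of the 4 libraries, WT in blue and KO in red. The library symbols lie close together compared with the gaps between the leading class and the rest for *Plxnd1*, *Plxnb3* and *Plxna4*, and they scatter widely in neutrophil-like cells.

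The secreted class 3 ligands were mostly high in connective tissue cells, cartilage or glia. *Sema3c*, a guidance cue for neural crest and vessels, was at 373, 353, 359 and 328 CPM in the *Kera*-led cluster and at 394, 314, 384 and 304 CPM in FAP-like cells, with overlap. *Sema3a*, a repellent of motor and sensory axons, was at 239, 211, 286 and 203 CPM in the *Kera*-led cluster and at 120, 145, 208 and 124 CPM in chondrocyte-like cells, which overlapped through KO replicate 1. FAP-like cells had 95.2 to 118 CPM of *Sema3a* and myogenic-like cells 76.5 to 111 CPM. *Sema3d* was at 74.8, 81.5, 92.9 and 69.0 CPM in chondrocyte-like cells, above 48.5 to 66.6 CPM in the *Kera*-led cluster. *Sema3b* was at 108, 101, 94.4 and 98.7 CPM in glial-like cells against 11.5 to 22.9 CPM in the *Kera*-led cluster. *Sema3e*, the direct ligand of plexin D1, was at 97.5, 91.5, 117 and 106 CPM in glial-like cells, overlapping chondrocyte-like cells at 86.5, 92.4, 75.0 and 79.3 CPM. Its level in endothelial-like cells, where *Plxnd1* was highest, was 1.12 CPM. *Sema3g* was at 25.8 to 32.0 CPM in endothelial-like cells, above glial-like cells at 12.2 to 18.6 CPM. *Sema3f* was at or below 13.3 CPM in all classes.

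Class 3 ligands divided the FAP-like cells further. In the sub-cluster with adventitial-type markers, *Sema3c* was at 996, 746, 832 and 738 CPM, against 119 to 180 CPM in the *Slc35f3*-led and 135 to 183 CPM in the *Acta1*-led sub-cluster. *Acta1* and other contractile genes, known from muscle fibers, led that sub-cluster, and the source of this RNA was not tested. *Sema3d* was at 150, 115, 115 and 128 CPM in adventitial-type cells and at 0.852 to 1.25 CPM in the *Slc35f3*-led cells. *Sema3a* was at 162 to 203 CPM in adventitial-type cells against 73.8 to 92.0 CPM in the *Slc35f3*-led cells. *Sema5a* ran the other way, at 114 to 159 CPM in adventitial-type cells against 270 to 300 CPM in the *Slc35f3*-led cells.

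Glial-like cells also held contrasting sub-clusters. The *Syt1*-led sub-cluster (308 cells) had *Sema3e* at 391, 356, 370 and 345 CPM and *Plxna4* at 207, 167, 212 and 190 CPM, while the myelinating-like sub-cluster had 15.2 to 79.2 CPM of *Sema3e* and 14.0 to 30.7 CPM of *Plxna4*. *Nrp2* was the reverse, at 9.52 to 18.8 CPM in the *Syt1*-led cells and 79.2 to 132 CPM in the myelinating-like cells. Both ranges lay below the 161 to 189 CPM of the whole glial-like class, so *Nrp2* was higher in other glial-like sub-clusters. *Sema3b* was at 132 to 158 CPM in the myelinating-like cells and 18.8 to 37.6 CPM in the *Syt1*-led cells.

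The membrane-bound semaphorins of classes 4 to 7 included immune, vessel-wall and glial genes. *Sema4d*, the ligand of plexin B1, was at 191, 236, 181 and 158 CPM in neutrophil-like cells and at 33.0 to 43.4 CPM in macrophage-like cells. *Sema4a* was at 85.1, 132, 104 and 112 CPM in neutrophil-like cells and at 27.8 to 36.9 CPM in macrophage-like cells. *Sema4b* was at 15.2 to 21.4 CPM in mast-like cells, overlapping macrophage-like cells at 10.0 to 16.7 CPM, and with looser cell filters its mean in mast-like cells was 10.8 CPM. *Sema4c* was at 27.8 to 32.8 CPM in tenocyte-like cells, overlapping endothelial-like cells. *Sema4g* was at 7.2 to 11.3 CPM in glial-like cells. *Sema4f* had 99 UMIs in all kept cells, and its highest value in any class and library was 2.03 CPM.

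*Sema5a* and *Sema5b*, which carry thrombospondin repeats, were both highest in smooth muscle or pericyte-like cells. *Sema5a* was at 369, 405, 352 and 356 CPM there and at 286 to 327 CPM in the *Ccl11*-led cluster. *Sema5b* was at 93.8, 99.8, 97.9 and 72.1 CPM there and at 59.2 to 67.7 CPM in the *Ccl11*-led cluster. *Sema6a*, a ligand of plexins A2 and A4, was broad. It was at 260, 249, 260 and 269 CPM in endothelial-like, 230, 246, 233 and 234 CPM in myogenic-like and 214, 235, 208 and 247 CPM in glial-like cells. Tenocyte-like cells had means of 178 CPM in WT and 147 CPM in KO, and chondrocyte-like cells had 115 and 107 CPM. *Sema6d* was at 288, 275, 267 and 255 CPM in glial-like cells, and the next class, smooth muscle or pericyte-like cells, had 116, 125, 103 and 101 CPM. Within that class *Sema6d* was at 165 to 184 CPM in pericyte-like and 54.1 to 94.0 CPM in smooth muscle-like cells. *Sema6b* was at 12.3 to 18.8 CPM in endothelial-like cells and *Sema6c* at 17.5 to 19.2 CPM in FAP-like cells. *Sema7a* was at 23.8 to 33.4 CPM in endothelial-like cells, and *Sema3g* and *Sema7a* were concentrated in the arterial-like sub-cluster. There *Sema3g* was at 126, 141, 115 and 174 CPM against 5.41 to 10.6 CPM in the *Pgm5*-led cells, and *Sema7a* was at 120, 124, 99.7 and 112 CPM against 8.59 to 15 CPM.

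Along the myogenic-like sub-clusters (progenitor-like, cycling and myoblast-like), 15 of the 31 genes had the same highest stage in all 4 libraries. The share over all genes is not given here either. The stages are clusters of the same cells and were not tested. *Plxna1* was at 1.77, 2.12, 1.27 and 2.01 CPM in progenitor-like cells and at 54.2, 62.2, 57.3 and 39.9 CPM in myoblast-like cells. *Sema6b* was at 1.63 to 3.53 CPM and at 21.6 to 32.1 CPM in these stages, and *Sema3e* at 2.83 to 4.16 CPM and at 9.85 to 16.2 CPM. *Plxna2* was at 205, 192, 173 and 164 CPM in progenitor-like cells and at 332, 343, 312 and 269 CPM in myoblast-like cells. *Sema5a* was at 58.9 to 71.0 CPM and at 107 to 179 CPM, and *Sema6a* at 206 to 219 CPM and at 313 to 371 CPM. These 6 genes were higher in myoblast-like cells without overlap. *Sema3a* was the reverse, at 162, 119, 121 and 105 CPM in progenitor-like cells and at 5.73, 7.14, 7.32 and 5.02 CPM in myoblast-like cells. *Plxnb2* was at 30.9 to 41.1 CPM in progenitor-like cells and at 3.54 to 5.35 CPM in myoblast-like cells. A myotube-like sub-cluster had 11 to 30 cells per library and carried 5 FAP markers, so its levels are not described.

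**Figure D3:**
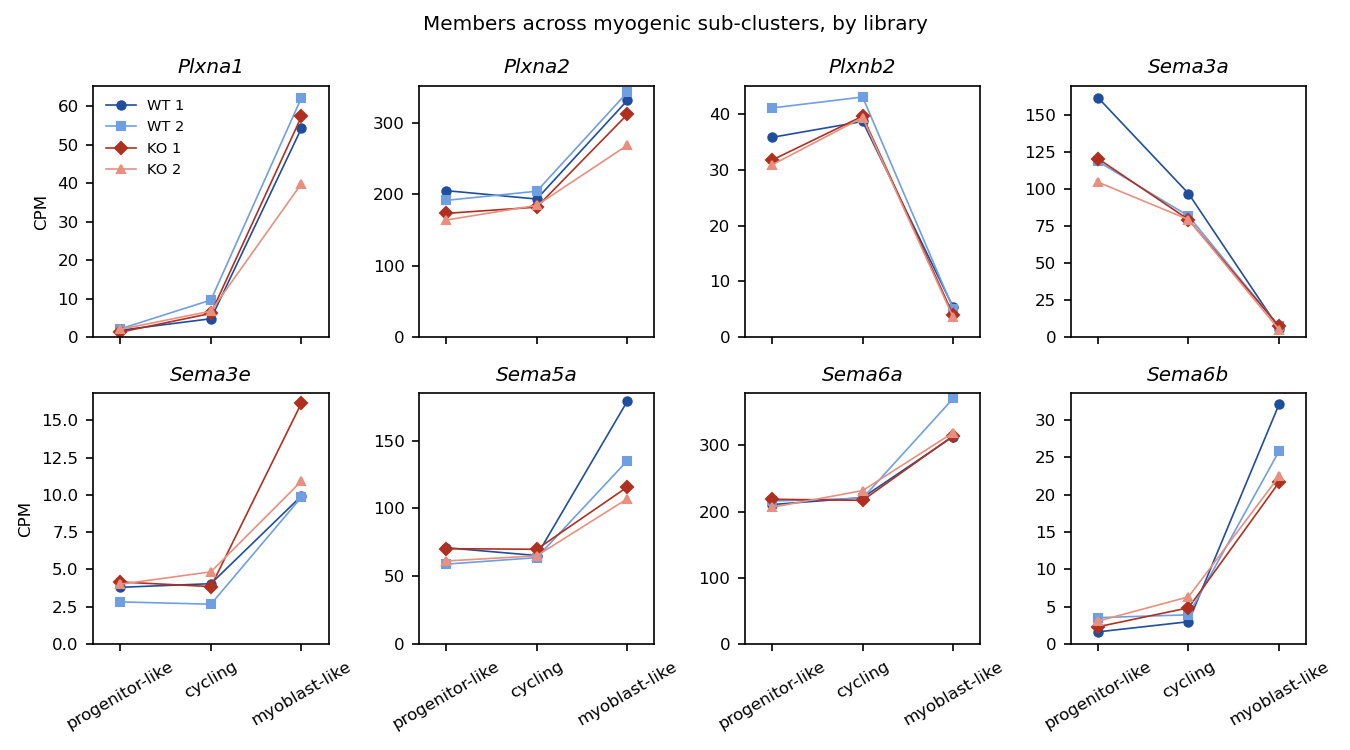
CPM (linear vertical axis from 0) of 8 genes in progenitor-like, cycling and myoblast-like cells, with 1 line per library (WT in blue, KO in red). In each library *Plxna1*, *Plxna2*, *Sema3e*, *Sema5a*, *Sema6a* and *Sema6b* are highest in myoblast-like cells, and *Sema3a* and *Plxnb2* are lowest there.

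For the gene with the most UMIs in each family, the genes most alike over 10 classes and 4 libraries (40 points that share libraries, Pearson's r of log2(CPM + 1), a description) were *Mmp2*, *Col5a2* and *Robo2* for *Sema3c* (r = 0.909, 0.898 and 0.898). They were *Syn2*, *Ripply3* and *Chrnb1* for *Plxna2* (r = 0.846, 0.845 and 0.844) and *Sult1a1*, *Igfbp4* and *Icam1* for *Nrp1* (r = 0.871, 0.866 and 0.839).

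The question for KO against WT was whether the loss of *SYISL* changed these genes in any class. The summed UMIs of each class were compared with edgeR's quasi-likelihood test over all of its genes, with Benjamini-Hochberg adjustment and a threshold of 0.05. In 9 classes, 207 tests of the 31 genes were made and 1 passed, *Sema3a* in smooth muscle or pericyte-like cells. DESeq2 called 1 of these tests as well, in the same gene and class. At an unadjusted p under 0.05 there were 16 of 207, or 7.73%, against 4.06% of 112973 tests of all genes.

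**Figure D4:**
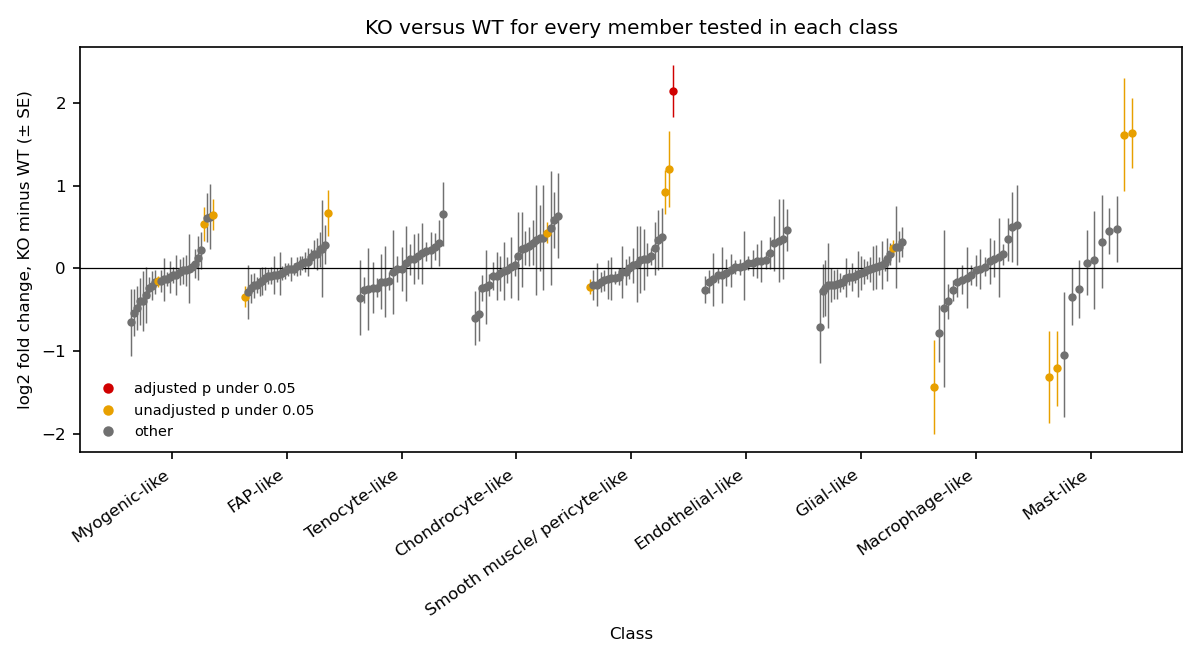
Log2 fold change (KO minus WT) with its standard error from edgeR for every one of the 31 genes tested in each of 9 classes, ordered by size within a class. The red point is *Sema3a* in smooth muscle or pericyte-like cells (2.14), orange points have an unadjusted p under 0.05 and grey points do not.

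In myogenic-like cells none of 28 genes passed, as none of 14709 genes did (0%), and 3 had an unadjusted p under 0.05 against 3.77% of all genes. *Plxna2* was at 220 and 224 CPM in WT and 199 and 188 CPM in KO, a log2 difference of -0.16 (SE 0.065, adjusted p = 0.967 by edgeR). *Sema3e* was at 5.06 and 4.14 CPM in WT and 6.44 and 7.57 CPM in KO (log2 fold change 0.65, SE 0.19, adjusted p = 0.967). Both KO libraries lay on one side of both WT libraries for these genes, and neither passed. Without sub-clusters holding markers of other classes the value of *Sema3e* was 0.41. The median log2 fold change of the 28 genes was -0.10, against 0.0017 over all genes.

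In FAP-like cells none of 30 genes passed (0% of 17877 genes), and 2 had an unadjusted p under 0.05 against 2.69% of all genes. *Sema3f* was at 6.22 and 6.51 CPM in WT and 4.99 and 4.82 CPM in KO, a log2 difference of -0.34 (SE 0.13, adjusted p = 1.00 by edgeR). An interaction term compared the KO effect in myogenic-like cells with that in FAP-like cells, and none of 31 genes passed (0% of 17733 genes, with 3.11% at an unadjusted p under 0.05, and 5 of the 31 genes).

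In endothelial-like cells none of 20 genes passed, against 0.017% of 11785 genes, and none had an unadjusted p under 0.05 against 3.70% of all genes. The log2 fold changes of the 20 genes lay between -0.26 and 0.46. In tenocyte-like cells none of 21 genes passed against 0.0173% of 11543 genes, and none had an unadjusted p under 0.05 against 5.09%. In glial-like cells none of 29 genes passed (0% of 12840 genes), and 1 had an unadjusted p under 0.05 against 3.70%. It was *Sema3e*, at 97.5 and 91.5 CPM in WT and 117 and 106 CPM in KO (log2 fold change 0.25 ± 0.094 SE, adjusted p = 0.998 by edgeR).

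In chondrocyte-like cells none of 24 genes passed (0% of 12153 genes), and 1 had an unadjusted p under 0.05 against 2.86%. *Sema5a* was at 69.2 and 75.4 CPM in WT and 101 and 95.6 CPM in KO (log2 fold change 0.43 ± 0.13 SE, adjusted p = 1.00 by edgeR), and KO replicate 1 held 97 of these cells. In macrophage-like cells none of 19 genes passed (0% of 11303 genes), and 1 had an unadjusted p under 0.05 against 4.44%. *Sema3a* was at 26.2 and 6.80 CPM in WT and 6.43 and 5.55 CPM in KO (log2 fold change -1.44 ± 0.57 SE, adjusted p = 0.995 by edgeR). WT replicate 1 set this value: without it the log2 fold change was -0.16, and without WT replicate 2 it was -2.10 (adjusted p = 0.00555).

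In mast-like cells none of 12 genes passed (0% of 8156 genes), and 4 had an unadjusted p under 0.05 against 6.50%. Of these, *Sema3e* had means of 32.4 CPM in WT and 97.2 CPM in KO, with overlap between the libraries of the genotypes. *Sema3c* had 6 and 6 UMIs in WT and 21 and 22 UMIs in KO (log2 fold change 1.64 ± 0.42 SE, adjusted p = 0.520 by edgeR). *Sema6a* had 26 and 20 UMIs in WT and 8 and 15 UMIs in KO (log2 fold change -1.21, SE 0.45, adjusted p = 0.716), and *Sema7a* had 10 and 10 UMIs in WT and 4 and 5 UMIs in KO (log2 fold change -1.32, SE 0.56, adjusted p = 0.761). The 8 FAP markers summed to 474 and 1151 CPM in WT mast-like cells and 1402 and 1587 CPM in KO, and their part in the *Sema3c* value was not tested. The bounds of the class also moved with the clustering. It held 69, 95, 97 and 98 cells here, and 59, 60, 85 and 82 cells with centring within library. Macrophage-like cells numbered 1040 here and 1114 with that centring. What the differing cells were, and their part in the mast-like values, was not tested.

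In smooth muscle or pericyte-like cells 1 of 24 genes passed, against 0.143% of 12607 genes, and 4 had an unadjusted p under 0.05 against 5.39% of all genes. *Sema3a* (ENSMUSG00000028883, mm10, chr5:13125414-13602565, plus strand) had 13 and 13 UMIs in WT and 51 and 66 UMIs in KO, or 2.66 and 3.06 CPM and 10.4 and 14.8 CPM. Both KO libraries were above both WT libraries, with a fitted difference of 2.14 on the log2 scale (SE 0.31, adjusted p = 0.00813 by edgeR). *Sema3c* was at 11.9 and 11.3 CPM in WT and 28.9 and 14.3 CPM in KO (log2 fold change 0.93, SE 0.27, adjusted p = 0.401) and passed without KO replicate 2 (1.33), but not without KO replicate 1 (0.33). *Sema6d* was at 116 and 125 CPM in WT and 103 and 101 CPM in KO (log2 fold change -0.22, SE 0.091, adjusted p = 0.852).

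The *Sema3a* UMIs of this class lay mostly in 2 small sub-clusters that carry markers of other classes. A *Kera*-led sub-cluster with all 8 FAP markers held 6, 7, 35 and 48 of the UMIs in 15, 9, 40 and 29 cells. A *Myog*-led sub-cluster with 7 myogenic markers held 5, 2, 12 and 13 of the UMIs in 9, 3, 12 and 7 cells. The other sub-clusters together held 2, 4, 4 and 5 *Sema3a* UMIs in 429, 359, 445 and 388 cells. *Sema3c* showed a like split, with 39, 31, 129 and 43 UMIs in the *Kera*-led sub-cluster and 11, 15, 4 and 15 UMIs outside the 2 sub-clusters. Over the whole class the 8 FAP markers summed to 1556 and 1097 CPM in WT and 2405 and 1972 CPM in KO, and each of the 8 was higher in both KO libraries than in both WT libraries. When sub-clusters with 3 or more markers of another class were left out, an alternative chosen after the data were seen, *Sema3a* had too few UMIs to be tested and the log2 fold change of *Sema3c* was -0.32 (adjusted p = 0.994). When doublets called by Scrublet were removed, *Sema3a* no longer passed (log2 fold change 1.83, adjusted p = 0.425), and with looser cell filters it was 0.74 (adjusted p = 0.902).

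**Figure D5:**
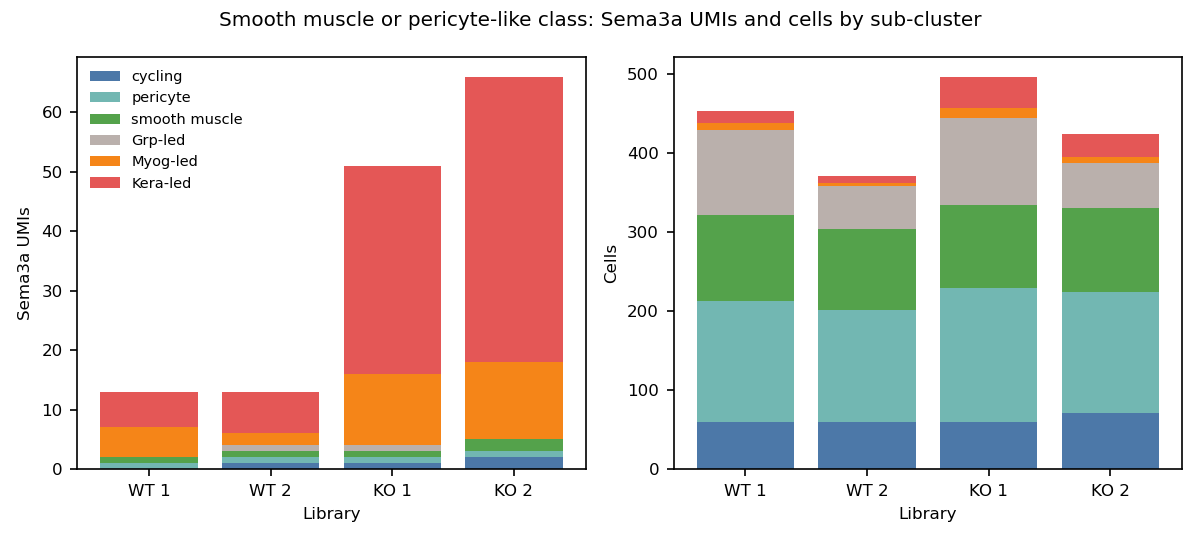
Stacked bars of *Sema3a* UMIs (left) and of cells (right) in smooth muscle or pericyte-like cells of each library, divided by sub-cluster. The *Kera*-led and *Myog*-led sub-clusters hold most of the UMIs and few of the cells, and the bars of the KO libraries reach 51 and 66 UMIs.

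The other genes of the pathway were taken from a list of 17 co-receptors and alternative ligands or receptors, 28 cytoplasmic effectors of plexins and 4 processing proteases. Over 9 classes, 350 edgeR tests were made and none passed, against 22 of 112973 tests of all genes, nor did any by DESeq2. At an unadjusted p under 0.05 there were 11 of 100 tests of co-receptors and ligands (11%, 5 higher and 6 lower in KO), 8 of 214 tests of effectors (3.74%, 6 higher, 2 lower) and 2 of 36 tests of proteases (5.56%, both higher), against 4.06% over all genes.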

How the data were processed

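The authors aligned reads to mm10 with Cell Ranger 7.2.0, per the labels, and the deposited values are raw UMI counts by gene and barcode. Whether intronic reads were counted is not given in the sources used here. The study's limits were applied: 1000 to 6000 genes, 1000 to 25000 UMIs and a mitochondrial share under 8%. The paper reports fewer cells after filtering than the 36969 kept here, so the cell sets differ. The source of the difference was not tested. Clustering used 3000 variable genes without the 31 genes, 30 principal components, 20 neighbours and Leiden resolution 0.3 (scanpy 1.11.5, igraph 0.11.9). No batch correction was used. Doublets were removed only in an alternative (Scrublet, 135 to 251 cells per library). Classes were named from marker lists by a rule chosen with the data in view. Any name but FAP-like needed at least 3 markers and over 50% of its list at 2-fold over all other cells, detected in 10% of the cluster and at no less than 50% of the highest cluster's level. A remaining cluster was FAP-like if 3 FAP markers reached 25% of the highest cluster's level and no other list had 3 markers at 2-fold, and was otherwise unnamed. The genes and lists were chosen with earlier results of these data known.

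Summed UMIs were tested with edgeR 4.0.16 (TMM, filterByExpr) in R 4.3.3, and standard errors came from the quasi-likelihood F statistic. A class was tested if each library held at least 50 of its cells. Log2 fold changes and tests were named where the adjusted p was under 0.05, or where the unadjusted p was, the mean was at least 5 CPM and both KO libraries lay on one side of both WT libraries; genes under 20 UMIs were to be given by UMIs (there were none). Alternatives were DESeq2 1.42.0, RLE factors, no count filter, a replicate block, left-out libraries, other clustering and other cell filters. On simulated counts edgeR recovered 87% of genes changed by a log2 fold of 1 and 97% by 2 in myogenic-like cells (14709 genes). It recovered 81% and 97% in FAP-like cells (17877 genes) and 80% and 100% in endothelial-like cells (11785 genes). In each class 100 genes were changed by each fold, and there were 16 to 17 false calls. That is a larger share of the calls than the threshold of 0.05 aims for. The changed genes were drawn only from those with a mean of at least 20 UMIs per library, so recovery at lower counts is not known.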

Additional observations from a re-analysis of the deposited data

How the results depend on the processing

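The count of the 31 genes called stayed 0 in 6 of 9 classes and in the interaction under each alternative run. It was 0 to 1 in macrophage-like cells with a library left out (1 without WT replicate 2) and 1 in mast-like cells with no count filter (*Sema3e*). In smooth muscle or pericyte-like cells the main count was 1. It was 2 with no count filter, with the replicate block and without KO replicate 2, where *Sema3c* joined *Sema3a*, and 1 without each other library. It was 0 with Scrublet doublets removed, at clustering resolution 1, with the looser cell filter and without sub-clusters holding markers of other classes. *Sema3c* in that class was -0.32 under the last of these, a change of sign. The cause was not tested, beyond the removal of its UMIs with those sub-clusters.

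Counts over all genes moved more. With no count filter they were 52 (endothelial-like), 130 (smooth muscle or pericyte-like), 58 (glial-like), 7 (tenocyte-like), 50 (chondrocyte-like), 274 (mast-like) and 22 (interaction). With the replicate block they were 1 (myogenic-like), 4 (endothelial-like), 122 (smooth muscle or pericyte-like), 32 (glial-like), 47 (tenocyte-like), 20 (chondrocyte-like) and 9 (macrophage-like). The labels give the same replicate numbers in both genotypes. The fetuses were littermates, but whether a replicate number stands for a litter is not given, so the pairing is by number alone. Over genes, the deviations of log CPM from the genotype mean correlated by 0.0316 to 0.186 between same-numbered libraries, depending on the class. With 2 libraries per genotype, either same-numbered pair gives the same value. The block changed no other call among the 31 genes. DESeq2 called 2 (myogenic-like), 6 (FAP-like), 5 (endothelial-like), 1 (glial-like), 11 (mast-like), 3 (macrophage-like) and 2 (interaction). With Scrublet doublets removed there were 0 (endothelial-like), 6 (smooth muscle or pericyte-like) and 7 (macrophage-like). At resolution 1 there were 4 (smooth muscle or pericyte-like), 0 (tenocyte-like) and 6 (mast-like), and with centring within library 1 (tenocyte-like) and 7 (mast-like). With the looser filter there were 0 (endothelial-like), 4 (smooth muscle or pericyte-like), 2 (glial-like) and 1 (tenocyte-like). RLE factors gave 1 (tenocyte-like). Without the mixed sub-clusters there were 0 (endothelial-like) and 1 (smooth muscle or pericyte-like).

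With one library left out, the spread of the lone library is taken from the other genotype. The counts over all genes then ranged from 0 to 12 (myogenic-like), 0 to 30 (FAP-like), 2 to 159 (endothelial-like), 29 to 128 (smooth muscle or pericyte-like), 0 to 21 (glial-like), 11 to 34 (tenocyte-like), 0 to 16 (chondrocyte-like), 0 to 42 (macrophage-like), 0 to 138 (mast-like) and 0 to 12 (interaction). The genes with the same highest class in every library numbered 21 to 25 under the alternatives (22 in the main setting), and those with the same highest myogenic stage 15 to 17. Of 305 levels recomputed in the highest class, 16 moved by more than 1 SD. The simulated data covered no change below a log2 fold of 1 and changed no genes with low counts. They covered only myogenic-like, FAP-like and endothelial-like cells. Smooth muscle or pericyte-like cells, which held the 1 call, were not simulated. Nor were mast-like cells, where the genes named had 4 to 26 UMIs per library.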
